A study of Arabidopsis thaliana with 18 samples.

Results

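Replicate 3 of an Arabidopsis thaliana array experiment was set against replicates 1 and 2 of the same experiment, to ask which transcripts differed between replicate numbers whatever the treatment. The 6 arrays of replicate 3 were those whose titles carry Rep3, out of 18 arrays in all, and the 12 others carry Rep1 or Rep2, 6 arrays each. Every array held Affymetrix ATH1 probes hybridised with RNA of the accession Mt-0. Within each replicate number, 3 arrays were from plants given SA at 0.30 mM in 0.02% silwet, and 3 from plants given 0.02% silwet alone. SA was taken to mean salicylic acid, a hormone of plant defence, and silwet is a surfactant that helps solutions wet leaves. The serial numbers in the titles run in sets of 3, each set holding replicates 3, 1 and 2 of one treatment, so that either treatment had serial sets 1, 2 and 3. SA and silwet sets of the same number were matched by this order, a match that the titles do not state.

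The labels do not say what a replicate number or a serial set stands for, and give no tissue, plant age or harvest time. The titles carry a second number of unstated meaning, in which the ranges of replicates 3, 1 and 2 do not overlap. Growth, RNA handling and array processing therefore cannot be told apart from the replicate number. The p-values hold for the spread among these 18 arrays, part of which may be technical.

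Leaf chloroplasts carry a small genome of their own, which encodes core subunits of both photosystems, the cytochrome b6f complex, the ATP synthase, an NADH dehydrogenase-like complex, part of the plastid ribosome and the subunits of a bacterial-type RNA polymerase. Most of these genes lie in clusters that are transcribed together, and a second, nuclear-encoded polymerase also reads the plastid genome. Plastid and mitochondrial transcripts do not carry the stable poly(A) tails of nuclear messengers, and the labels do not say how the RNA was primed for labelling. Among nuclear genes, WRKY factors and peroxidases are known for roles in defence, SWEET proteins for sugar export, and dehydrins and late embryogenesis proteins for tolerance of cold and drought.

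Replicate number accounted for 15.2% of the variance of log2(signal + 16) summed over 13647 tested probe sets. Of this, 9.05% lay between replicate 3 and the other replicates, and 6.16% between replicates 2 and 1. Treatment accounted for 4.88%, serial set for 35%, treatment by set for 15.2% and replicate number by set for 18.7%. Replicate 3 was thus a smaller source of variance than the serial sets, as the plot of variance by source shows. The terms differ in their degrees of freedom. Per degree of freedom, serial set held 17.5% and replicate 3 against the others 9.05%. Treatment by set held 7.6%, replicate 2 against replicate 1 6.16%, treatment 4.88% and replicate number by set 4.68%.

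**Figure D1:**
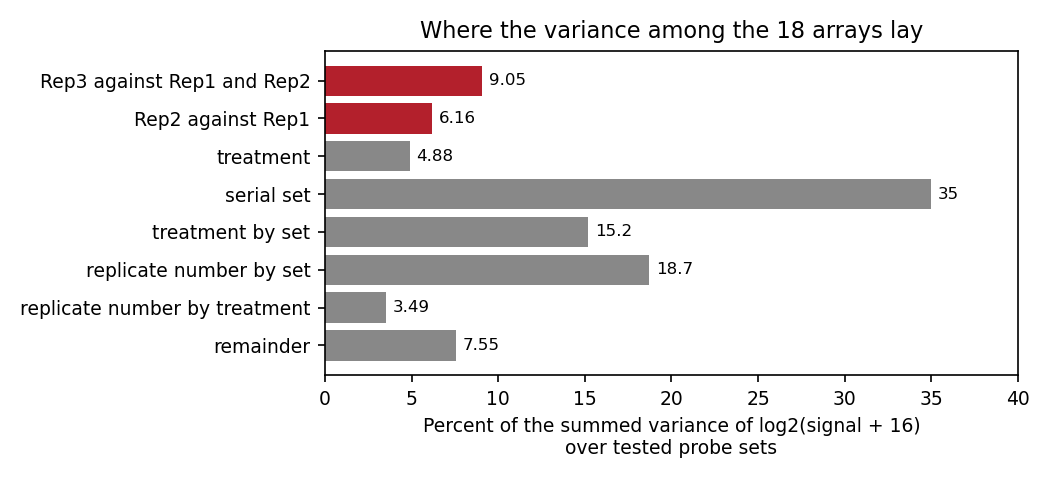
Percent of the summed variance of log2(signal + 16) over the tested probe sets (horizontal axis) for each term of the design (vertical axis). Serial set held 35%, replicate number by set 18.7%, treatment by set 15.2% and treatment 4.88%. Replicate number is drawn as its parts, replicate 3 against the others (9.05%) and replicate 2 against replicate 1 (6.16%). The shares are not divided by degrees of freedom.

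Against the mean of replicates 1 and 2, and with treatment by serial set as blocks, 104 probe sets differed in replicate 3 (limma, adjusted p below 0.05), which is 0.762% of those tested. Of these, 56 were higher in replicate 3, or 0.41%, and 48 were lower, or 0.352%. The higher ones differed by 0.51 to 2.56 on the log2 scale and the lower ones by -0.43 to -2.48. At least 2-fold differences were found for 27 of the higher and 19 of the lower ones. All 104 had the same sign in each of the 6 combinations of treatment and set. The tested difference is the mean over these 6 combinations, so a shared sign follows largely from the selection and is no separate support. At an unadjusted p below 0.05 there were 1804, where 682 would be expected by chance.

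In 23 probe sets, 0.169% of those tested, all 6 arrays of replicate 3 lay above all 12 others, and in 37, 0.271%, they lay below. Of the called probe sets, 12 of the 56 higher ones and 23 of the 48 lower ones were separated in this way. Of the higher ones 26 had exactly 1 gene and 29 no name here, and of the lower ones 37 had exactly 1 gene and 9 no name here. The plastid genome carried 18 of the 48 lower probe sets and 1 of the 56 higher ones, counting only those with exactly 1 gene. Probe sets with several genes or no name were not assigned to a genome, so organellar ones among them are not counted.

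The 3 SA arrays of set 1 lay together on the first principal component, apart from most others, with scores of 67.7 in replicate 3, 65.5 in replicate 1 and 52.8 in replicate 2. This combination of treatment and set is a block of the model. Leaving out single arrays moved the counts: without the SA array of set 1, replicate 1, 135 probe sets were higher in replicate 3 and 64 lower. The SA array of set 3, replicate 2, had the lowest median signal, and without it the counts were 80 higher and 69 lower. The counts were largest without the SA array of set 3, replicate 1, with 230 higher and 130 lower, and smallest without the silwet array of set 3, replicate 2, with 29 higher and 24 lower. Without serial set 2 only 1 higher and 2 lower probe sets passed. Of the 104, 45 were called with each single array left out in turn.

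Of the 10 largest decreases in replicate 3 among called probe sets with exactly 1 gene, 8 are carried by the plastid genome. Unnamed probe sets, whose decreases reached -2.46 on the log2 scale, are not in this ranking. The array names 69 plastid-encoded genes, of which 66 were bright enough to be tested. In replicate 3, 18 of the 66 were lower, 1 was higher and 47 did not pass, although 34 had an unadjusted p below 0.05. The difference was negative for 59 of the 66, and its median was -0.35 on the log2 scale, beside -0.01 over all tested probe sets. For 16 of them all 6 arrays of replicate 3 lay below all 12 others. Among all 13647 tested probe sets 0.352% were called lower, 1804 had an unadjusted p below 0.05 and 0.271% lay below all others. Of 17 tested nuclear genes of photosynthesis 0 were called, 1 had an unadjusted p below 0.05, and the median was -0.03 (limma). With 0.762% called among all tested probe sets, 0 calls in a list of 17 cannot be told apart from that share. The array measures RNA of mixed cells, so fewer chloroplasts or cells of a type and less RNA per cell cannot be told apart.

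**Figure D2:**
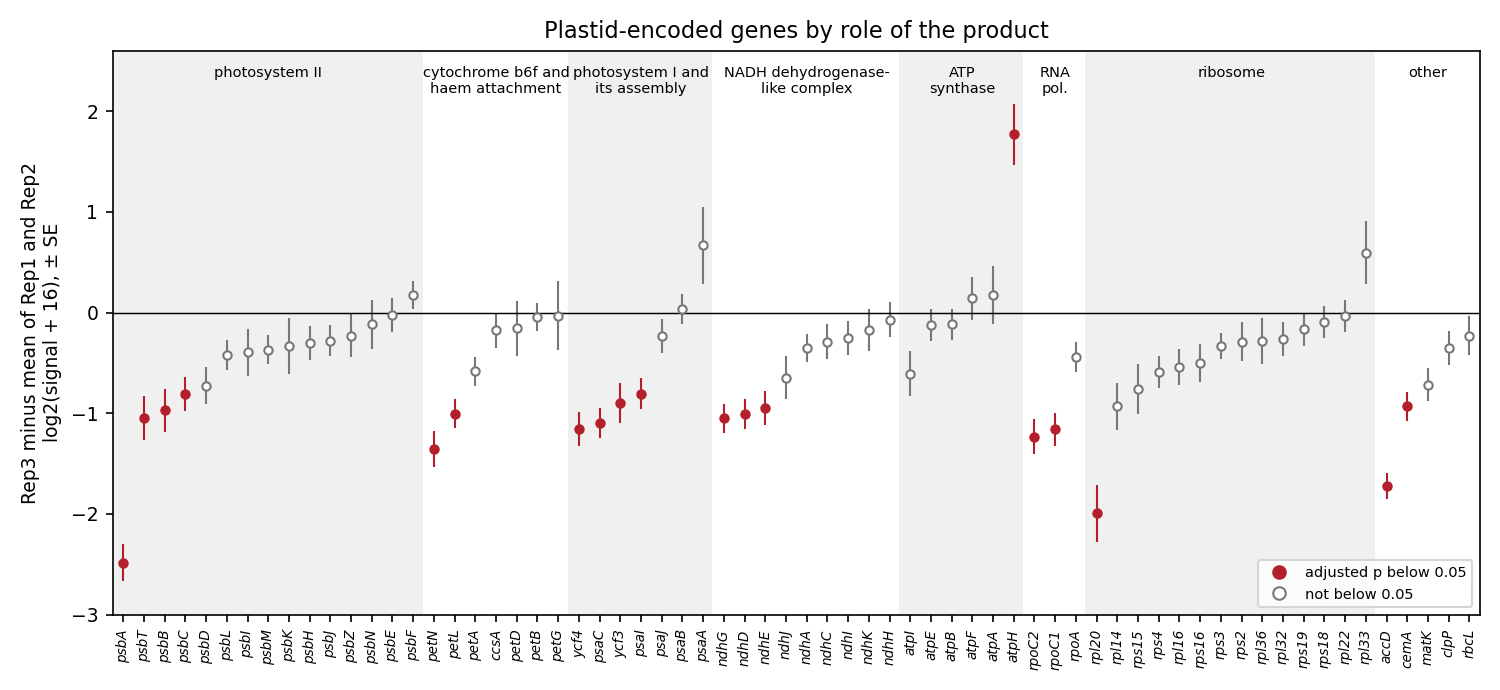
Difference of replicate 3 from the mean of replicates 1 and 2 in log2(signal + 16), with its standard error (vertical axis), for each tested plastid-encoded gene (horizontal axis), grouped by role. Filled points passed the threshold: 18 lay below 0 and 1, atpH of the ATP synthase, above it.

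Photosystem II, which splits water, had 15 tested genes, and 4 of them were lower in replicate 3. The median over the 15 was -0.37 on the log2 scale. psbA encodes D1, the reaction centre protein that is replaced most often. Its signals ran from 224 through a median of 279 to 374 in replicate 3, against 1604, 1743 and 2784 in replicate 1 and 985, 1412 and 2299 in replicate 2. The groups did not overlap, and psbA was 5.59-fold lower in replicate 3 (log2 difference -2.48, SE 0.19, adjusted p = 3.66e-06, limma). The difference was -2.26, -2.50 and -2.69 in sets 1, 2 and 3, -2.55 in SA arrays and -2.42 in silwet arrays.

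The other 3 were core antenna proteins and a small subunit. psbC, which encodes the antenna protein CP43, had signals of 814, 1037 and 1394 (lowest, median and highest) in replicate 3, against 1474, 1629 and 2854 in replicate 1 and 1582, 1816 and 2792 in replicate 2. All replicate 3 arrays were lower than all others, with a log2 difference of -0.81 (SE 0.17, adjusted p = 0.0339, limma). psbB, for the antenna protein CP47, and its neighbour psbT, for a small subunit, differed by -0.97 (SE 0.21, adjusted p = 0.0483) and -1.05 (SE 0.22, adjusted p = 0.0352), and in both the groups overlapped. psbA was called with each single array left out, whereas psbC was called in 9, psbB in 7 and psbT in 8 of the 18 fits with 1 array left out. psbD, for the D2 protein, had a difference of -0.73 that did not pass (adjusted p = 0.0898).

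Photosystem I, with its assembly factors, had 7 tested genes, of which 4 were lower in replicate 3, with a median of -0.81 on the log2 scale. psaC encodes the subunit that holds the terminal iron-sulfur clusters. Its signals were 318, 343 and 362 in replicate 3, against 696, 955 and 1140 in replicate 1 and 463, 592 and 815 in replicate 2. The 6 arrays of replicate 3 lay within a narrow band below all others (log2 difference -1.09, SE 0.15, adjusted p = 0.00272, limma). ycf4, an assembly factor, had signals of 470, 750 and 854 in replicate 3, against 1264, 1591 and 1966 in replicate 1 and 1345, 1602 and 2290 in replicate 2. It differed by -1.15 (SE 0.17, adjusted p = 0.00289) and did not overlap either. psaI, for a small subunit, differed by -0.81 (SE 0.16, adjusted p = 0.0222), and ycf3, a second assembly factor, by -0.90 (SE 0.20, adjusted p = 0.0483), with overlap in ycf3 alone. psaI was called in 12 and ycf3 in 7 of the 18 fits with 1 array left out, and neither with the SA and silwet arrays of a pair averaged.

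The cytochrome b6f complex, which passes electrons between the photosystems, had 7 tested genes together with haem attachment, and 2 were lower in replicate 3. The median over the 7 was -0.18 on the log2 scale. petN, for a small subunit, had signals of 62.6, 83.3 and 101 in replicate 3, against 126, 378 and 401 in replicate 1 and 158, 191 and 221 in replicate 2. It differed by -1.36 (SE 0.18, adjusted p = 0.00254, limma) without overlap. petL, for another small subunit, had signals of 447, 546 and 591 in replicate 3, against 876, 1127 and 1435 in replicate 1 and 827, 989 and 1709 in replicate 2, a difference of -1.0 (SE 0.14, adjusted p = 0.00272). In petA, for cytochrome f, all 6 replicate 3 arrays also lay below the others, but its difference of -0.58 did not pass (adjusted p = 0.0800).

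**Figure D3:**
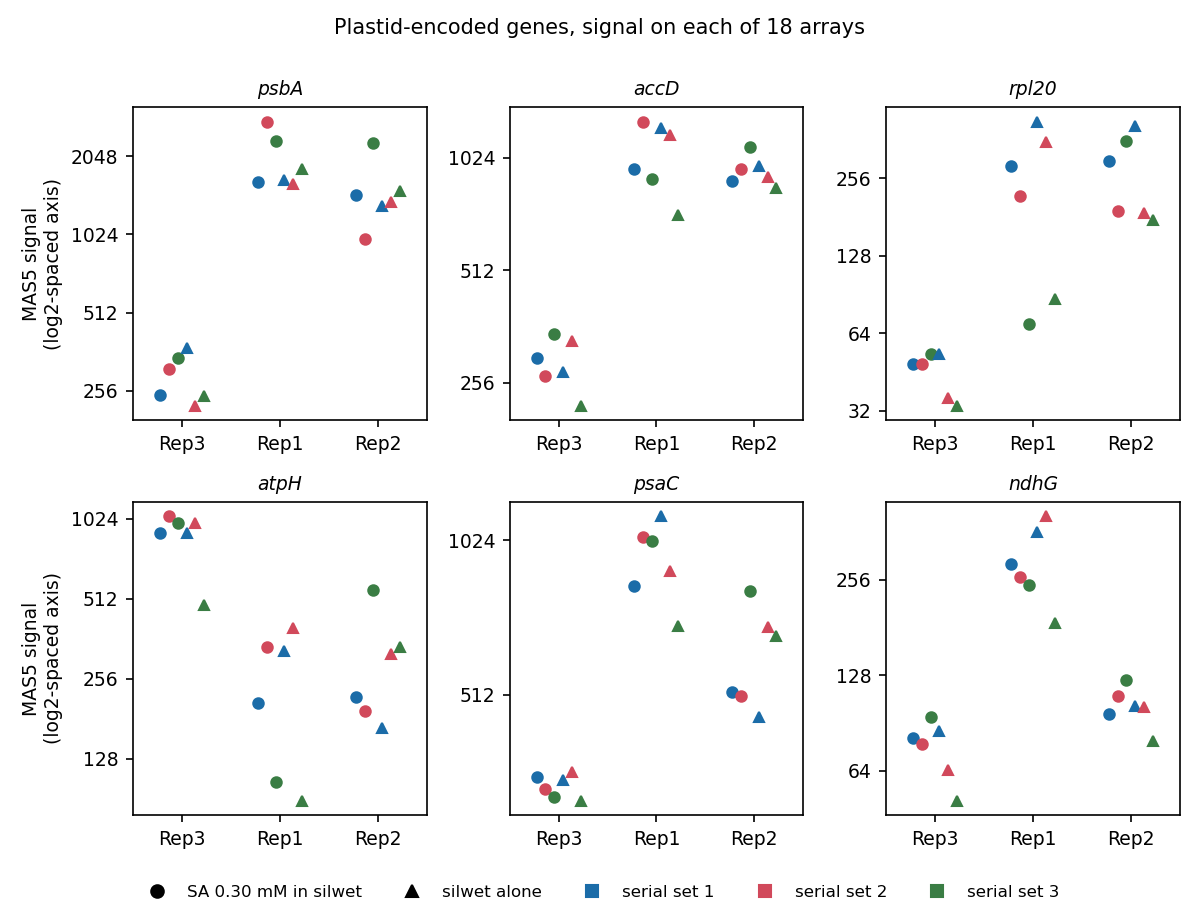
MAS5 signal on a log2-spaced axis (vertical) of single arrays by replicate number (horizontal) for plastid-encoded genes; symbols give the treatment and colours the serial set. The psbA signals of replicate 3 end at 374, below the lowest of the other arrays at 985, whereas atpH is the gene with higher signals in replicate 3.

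The NADH dehydrogenase-like complex, which carries electrons back from photosystem I, had 9 tested genes, and 3 were lower in replicate 3, with a median of -0.35 on the log2 scale. These were ndhD, ndhE and ndhG, which lie next to each other and to psaC. ndhD had signals of 811, 918 and 977 in replicate 3, against 1689, 1951 and 2834 in replicate 1 and 1360, 1591 and 2413 in replicate 2, a difference of -1.01 (SE 0.14, adjusted p = 0.00272, limma). ndhE differed by -0.95 (SE 0.17, adjusted p = 0.0126). ndhG had signals of 51.5, 79.6 and 94.6 in replicate 3, against 188, 274 and 407 in replicate 1 and 79.6, 102 and 124 in replicate 2. Its difference was -1.05 (SE 0.14, adjusted p = 0.00272), but replicate 3 overlapped with replicate 2 and lay below replicate 1 only.

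Of 6 tested ATP synthase genes, 1 was higher in replicate 3, atpH, and 5 did not pass. The median was 0.01 on the log2 scale, and atpI, for a subunit of the membrane part, had a difference of -0.61 (adjusted p = 0.239, limma). atpH encodes the subunit of the membrane ring that turns as protons pass. Its signals were 486, 944 and 1045 in replicate 3, against 89.0, 266 and 397 in replicate 1 and 167, 267 and 550 in replicate 2. Replicate 3 overlapped with replicate 2, and atpH was 3.41-fold higher (log2 difference 1.77, SE 0.30, adjusted p = 0.0098, limma). The difference was 1.95, 1.70 and 1.66 in sets 1, 2 and 3, and atpH was called with each single array left out. It was not called in 5 of the 16 other settings, which were pairs averaged, sets 1 or 2 left out, and either treatment alone (adjusted p up to 0.370).

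Genes that the plastid needs to express its own genome were among the lower ones. Of 3 tested subunits of the plastid RNA polymerase, 2 passed, and the median was -1.16 on the log2 scale. rpoC2 had signals of 36.7, 55.6 and 88.8 in replicate 3, against 109, 153 and 232 in replicate 1 and 132, 144 and 183 in replicate 2, a difference of -1.23 (SE 0.17, adjusted p = 0.00272, limma). Its neighbour rpoC1 had signals of 84.7, 124 and 173 in replicate 3, against 186, 284 and 491 in replicate 1 and 246, 322 and 394 in replicate 2, a difference of -1.16 (SE 0.16, adjusted p = 0.00272). In both, all 6 replicate 3 arrays were below the other 12.

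Of 14 tested ribosomal protein genes of the plastid, 1 passed and the median was -0.31. This was rpl20, of the large ribosomal subunit, with signals of 33.3, 48.7 and 53.2 in replicate 3, against 69.4, 252 and 426 in replicate 1 and 177, 245 and 409 in replicate 2. It was 3.98-fold lower in replicate 3 without overlap (log2 difference -1.99, SE 0.28, adjusted p = 0.00272, limma).

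Of 5 plastid genes of other roles, accD and cemA were lower in replicate 3. accD encodes a subunit of the acetyl-CoA carboxylase that starts fatty acid synthesis. Its signals averaged 289.6 ± 45.6 in replicate 3, against 1045 ± 221 in replicate 1 and 946 ± 86.0 in replicate 2 (SD, n = 6 each), with a highest value of 345 in replicate 3 and a lowest of 720 in the others. The groups were far apart, and accD was 3.30-fold lower (log2 difference -1.72, SE 0.13, adjusted p = 3.66e-06, limma). The difference was -1.76, -1.79 and -1.61 in sets 1, 2 and 3. cemA, for a protein of the chloroplast envelope, had signals of 888, 1125 and 1143 in replicate 3, against 1670, 1888 and 2548 in replicate 1 and 1705, 2069 and 3357 in replicate 2, a difference of -0.93 (SE 0.15, adjusted p = 0.00543). matK, which encodes a splicing factor of plastid introns, differed by -0.72 and did not pass (adjusted p = 0.0521).

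Several of the lower genes are neighbours in the plastid genome. accD, psaI, ycf4 and cemA form 1 run of 4 called genes, ndhD, psaC, ndhE and ndhG another run of 4, and rpoC2 with rpoC1 and psbB with psbT are runs of 2. The remaining called genes stand alone: psbA, petN, psbC, ycf3, petL, rpl20 and, as the only higher one, atpH. Neighbours can share a transcript, so the 18 genes are not 18 independent values. psbA and accD were the only probe sets of the 104 that were called in all 34 alternative fits, that is 16 other settings and 18 fits with 1 array left out.

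Of the genes of the mitochondrial genome, nad4 and cox1 were lower in replicate 3. Of 23 probe sets named on the array 12 were tested, among them a pair for nad1. Of these, 2 were lower and 0 higher, beside 0.352% lower among all tested probe sets, and 6 had an unadjusted p below 0.05. A negative difference was found for 11 of the 12, beside 7216 of all 13647, with a median of -0.30 on the log2 scale. nad4, a subunit of respiratory complex I, had signals of 31.2, 46.6 and 49.6 in replicate 3, against 55.9, 90.4 and 120 in replicate 1 and 55.6, 102 and 144 in replicate 2. It differed by -0.86 (SE 0.17, adjusted p = 0.0252, limma). cox1, a subunit of cytochrome c oxidase, had signals of 66.6, 82.7 and 93.5 in replicate 3, against 112, 125 and 220 in replicate 1 and 128, 169 and 179 in replicate 2, a difference of -0.76 (SE 0.14, adjusted p = 0.0200). Both were without overlap, and nad4 was called in 11 and cox1 in 16 of the 18 fits with 1 array left out.

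Nuclear genes that were higher in replicate 3 carry mostly locus codes here, for which the tables used give no function. AT2G44240 had signals of 153, 281 and 348 in replicate 3, against 1.67, 25.5 and 72.2 in replicate 1 and 2.24, 56.6 and 112 in replicate 2. It had the largest increase, 5.91-fold, and no overlap (log2 difference 2.56, SE 0.26, adjusted p = 0.000195, limma). The difference was 3.29, 2.22 and 2.17 in sets 1, 2 and 3, and since part of the low signals lie below the added 16, these values understate the ratio.

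AT1G26390, AT1G26380 and AT1G26420 lie close together on the chromosome and were all higher in replicate 3. AT1G26390 had signals of 142, 174 and 232 in replicate 3, against 7.0, 35.5 and 62.6 in replicate 1 and 11.4, 41.8 and 66.2 in replicate 2, a difference of 1.94 (SE 0.22, adjusted p = 0.000535, limma) without overlap. AT1G26380 differed by 1.21 (adjusted p = 0.0289) and AT1G26420 by 1.04 (adjusted p = 0.0253), and in both the replicates overlapped. AT1G26380 was called in 9 and AT1G26420 in 10 of the 18 fits with 1 array left out. Such neighbours can share sequence, so their probe sets may partly measure each other.

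AT4G12490 and its neighbour AT4G12500 were both higher in replicate 3. AT4G12490 had signals of 284, 1067 and 1570 in replicate 3, against 10.9, 141 and 410 in replicate 1 and 63.9, 363 and 783 in replicate 2, a difference of 2.16 (SE 0.27, adjusted p = 0.00114, limma) with overlap. AT4G12500 differed by 1.16 (SE 0.24, adjusted p = 0.0366) and was called in 8 of the 18 fits with 1 array left out. AT1G68620 had signals of 210, 249 and 336 in replicate 3, against 6.27, 50.7 and 79.2 in replicate 1 and 56.6, 92.6 and 157 in replicate 2, which gave a difference of 1.73 (SE 0.31, adjusted p = 0.0125) and no overlap. AT4G39830 differed by 1.10 (adjusted p = 0.0098), AT2G17740 by 1.02 (adjusted p = 0.0173) and AT2G27660 by 1.0 (adjusted p = 0.00797).

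The higher nuclear genes also included OSM34, AT5G64120 and WRKY6. OSM34 encodes an osmotin, a protein of the thaumatin family that accumulates under osmotic stress and infection. Its signals were 35.1, 136 and 300 in replicate 3, against 1.94, 14.7 and 53.1 in replicate 1 and 26.6, 66.7 and 118 in replicate 2. Replicate 3 overlapped with both, and OSM34 differed by 1.35 (SE 0.30, adjusted p = 0.0494, limma). AT5G64120 encodes peroxidase 71, a secreted enzyme that acts in the cell wall, and had median signals of 232 in replicate 3, with 137 as the lowest, against 68.3 in replicate 1, with 262 as the highest, and 92.3 in replicate 2. It differed by 1.33 (SE 0.29, adjusted p = 0.0483). WRKY6, a transcription factor of senescence and defence, had signals of 86.2, 130 and 270 in replicate 3, against 42.0, 55.1 and 200 in replicate 1 and 38.5, 55.7 and 154 in replicate 2, a difference of 0.90 (SE 0.18, adjusted p = 0.0250). All 3 overlapped, and OSM34 was called in 7, AT5G64120 in 6 and WRKY6 in 10 of the 18 fits with 1 array left out.

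**Figure D4:**
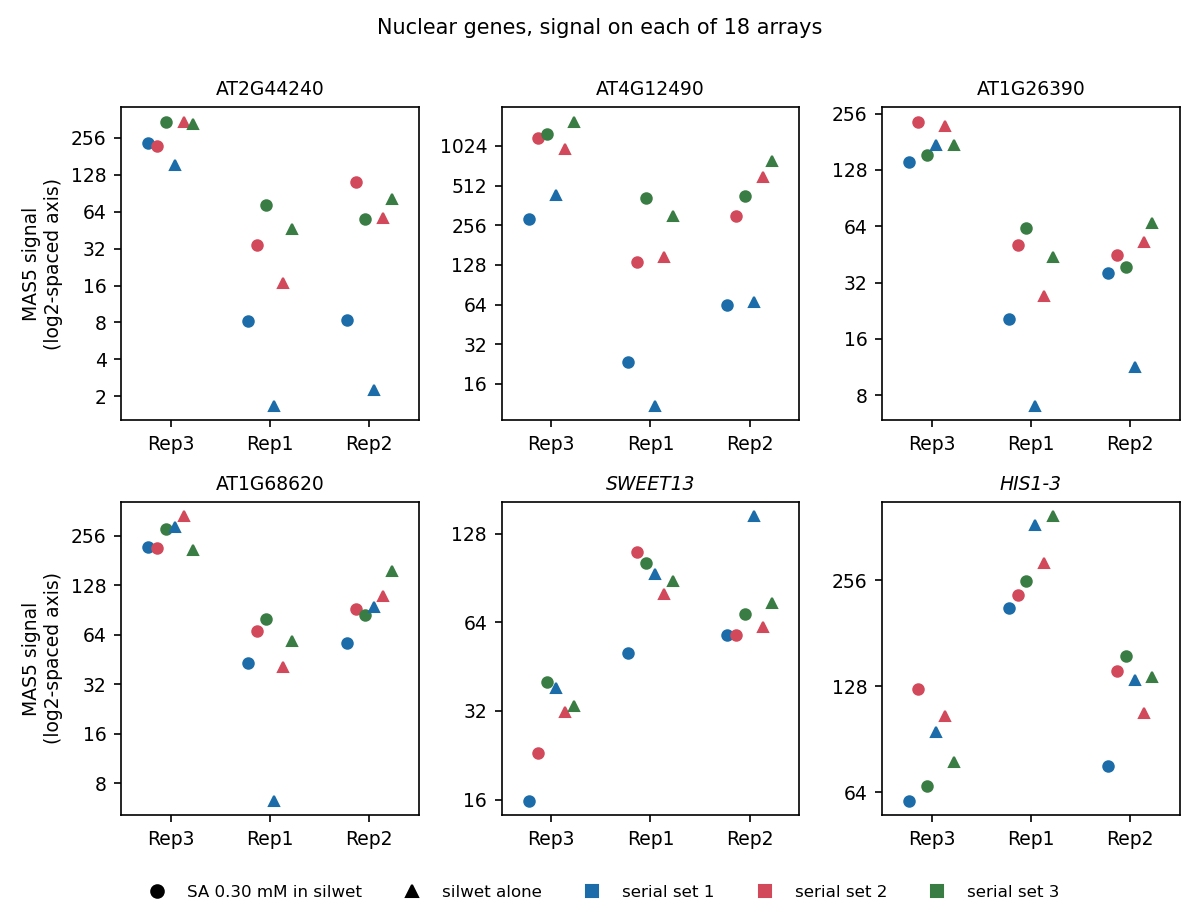
MAS5 signal on a log2-spaced axis (vertical) of single arrays by replicate number (horizontal) for nuclear genes; symbols give the treatment and colours the serial set. AT2G44240 in replicate 3 starts at 153, above the highest of the other arrays at 112, and SWEET13 in replicate 3 ends at 40.1, below the lowest of the others at 50.2.

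Nuclear genes that were lower in replicate 3 included a sugar transporter, a drought-induced gene and a linker histone. SWEET13 encodes an exporter that releases sucrose for loading into the phloem. Its signals were 15.9, 32.5 and 40.1 in replicate 3, against 50.2, 90.7 and 111 in replicate 1 and 57.8, 64.9 and 147 in replicate 2. It was 2.09-fold lower without overlap (log2 difference -1.07, SE 0.15, adjusted p = 0.00272, limma), and was called with each single array left out, but not without serial set 2 or in SA arrays alone.

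HIS1-3, a drought-induced variant of linker histone H1, had signals of 60.5, 86.5 and 125 in replicate 3, against 213, 270 and 389 in replicate 1 and 76.0, 135 and 156 in replicate 2. It differed by -1.0 (SE 0.16, adjusted p = 0.0064, limma), and replicate 3 overlapped with replicate 2. DI21, named as drought-induced, had signals of 33.2, 40.1 and 48.0 in replicate 3, against 71.8, 150 and 406 in replicate 1 and 44.6, 72.7 and 90.6 in replicate 2. It differed by -1.08 (SE 0.24, adjusted p = 0.0472) and was called in 5 of the 18 fits with 1 array left out. In both genes replicate 2 lay between replicates 3 and 1.

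Genes with a locus code alone that were lower included AT2G07741, whose probe set is shared with other sequences. Whether those are nuclear or organellar was not examined, so its signal cannot be assigned to a nuclear gene alone. It had signals of 27.2, 34.6 and 51.1 in replicate 3, against 90.9, 160 and 307 in replicate 1 and 52.6, 61.9 and 69.9 in replicate 2, a difference of -1.17 (SE 0.17, adjusted p = 0.00272, limma). AT1G16850 differed by -1.02 (adjusted p = 0.0222), AT1G48750 by -0.91 (adjusted p = 0.00543), AT4G33040 by -0.80 (adjusted p = 0.00428) and AT3G47590 by -0.66 (adjusted p = 0.00797). Among probe sets unnamed here, the differences reached 2.05 among the higher and -2.46 among the lower ones.

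Set against single replicates, replicate 3 differed from replicate 1 in 160 probe sets (86 higher and 74 lower; 1.17% of those tested) and from replicate 2 in 17 (7 higher and 10 lower; 0.125%). Replicate 2 differed from replicate 1 in 3 (1 higher and 2 lower; 0.022%), and any difference among the 3 numbers was found for 95 (0.696%, limma's F test). The comparisons share arrays, so their counts are not independent. psbA differed by -2.69 against replicate 1 and -2.27 against replicate 2 on the log2 scale, with adjusted p = 1.31e-05 and 9.85e-05 (limma). accD differed by -1.78 and -1.66, and rpl20 by -1.82 and -2.16. For these 3 genes replicate 3 therefore differed from either replicate.

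Other genes passed against replicate 1 alone. HIS1-3 differed by -1.55 from replicate 1 (adjusted p = 0.000667, limma) and by -0.44 from replicate 2 (adjusted p = 0.537). OSM34 differed by 1.92 from replicate 1 (adjusted p = 0.0109) and by 0.78 from replicate 2 (adjusted p = 0.552). ndhG differed by -1.72 from replicate 1 (adjusted p = 9.56e-05) and by -0.37 from replicate 2 (adjusted p = 0.553). The plastid genes atpH, psaC, psaI, ndhD, ndhE and petN also passed against replicate 1 but not against replicate 2 (adjusted p from 0.0561 to 0.181, limma). psbC, psbB, psbT and ycf3 passed against neither replicate alone, whereas rpoC2, rpoC1, ycf4, cemA and petL passed against both.

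ndhG was also among the 3 probe sets that differed between replicates 2 and 1, with a log2 difference of -1.35 in replicate 2 (SE 0.17, adjusted p = 0.00754, limma). The others were AT1G16850, at -1.48 (adjusted p = 0.0406), and AT4G23820, at 0.80 (adjusted p = 0.0358), both named after their values had been seen. AT4G23820 had signals of 231, 476 and 694 in replicate 2, against 116, 287 and 353 in replicate 1.

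Whether the difference of replicate 3 depended on treatment was tested by its interaction. In 0 probe sets did it differ between SA and silwet arrays (limma; 369 at an unadjusted p below 0.05, fewer than the 682 expected by chance). Between serial sets 0 passed as well (limma's F test; 821 at an unadjusted p below 0.05, smallest adjusted p = 0.264). Fitted within single sets, without the block for pairs, 152 probe sets were higher and 162 lower in replicate 3 in set 1, 85 and 54 in set 2, and 22 and 45 in set 3. Replicate 3 of a set was 1 SA and 1 silwet array, treated here as independent. A deviation shared by that pair cannot be told apart from replicate 3, so these counts may be too high. These counts show that fewer passed in set 3, but the test of the difference between sets called none.

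Values of the arrays themselves were compared in the same way, with the SA and silwet arrays of a set averaged and replicate 3 permuted within sets. The exact permutation test has 27 arrangements and cannot go below p = 0.037. For the GAPDH control, the 3′ over 5′ log2 ratio averaged -0.01 ± 0.15 in replicate 3 (SD, n = 6) and 0.36 ± 0.33 in replicates 1 and 2 (SD, n = 12), a difference of -0.38 (exact p = 0.185, two-sided, 0.5 after adjustment over 9 measures). The ubiquitin ratio averaged 1.23 ± 0.27 in replicate 3 and 1.41 ± 0.30 in replicates 1 and 2 (exact p = 0.222), and the actin ratio -0.45 ± 0.28 and -0.60 ± 0.45 (exact p = 0.667).

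Hybridisation spikes averaged 8.85 ± 0.27 in replicate 3 and 8.60 ± 0.47 in replicates 1 and 2 on the log2 scale (exact p = 0.519). Median signal was 32.2 ± 1.71 in replicate 3 and 32.8 ± 3.02 in replicates 1 and 2 (exact p = 0.889). The third principal component, with 10.5% of the variance, averaged -13.3 ± 5.92 in replicate 3 and 6.67 ± 14.3 in the others (exact p = 0.111). The first component, with 45% of the variance, averaged 8.03 ± 33.5 in replicate 3 and -4.01 ± 31.7 in the others (exact p = 0.0741, the smallest of the 9, and 0.5 after adjustment). The part of these measures in the lower plastid signals was not tested.

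**Figure D5:**
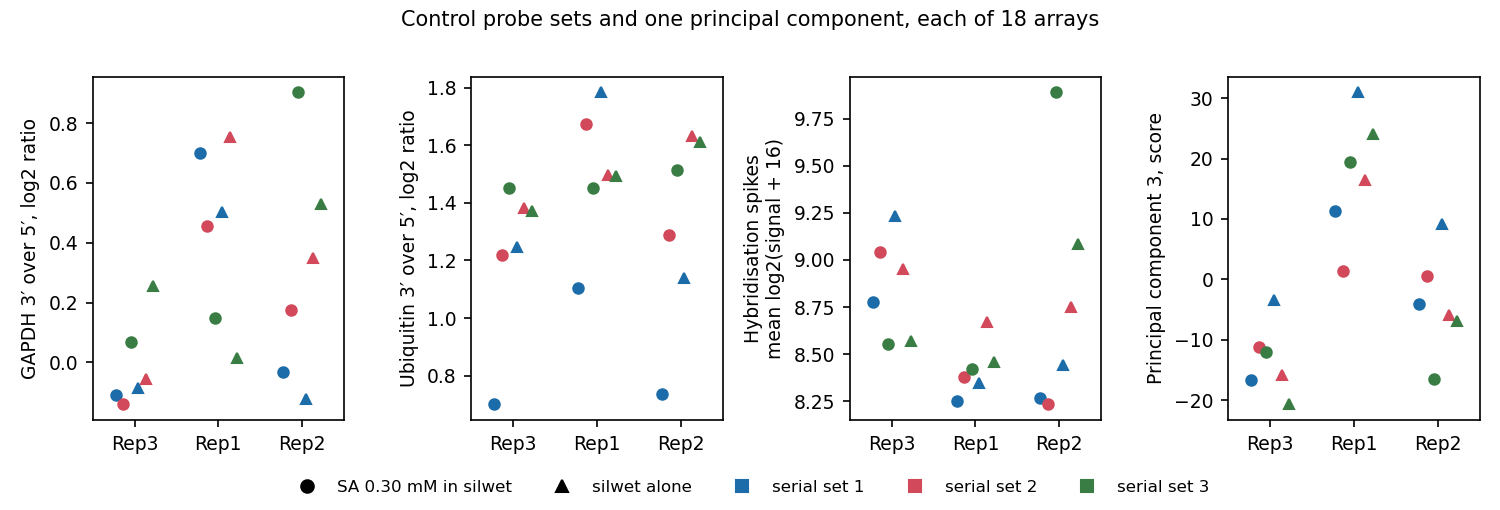
The 3′ over 5′ log2 ratios of the GAPDH and ubiquitin controls, mean log2(signal + 16) of the hybridisation spikes, and score on the third principal component (vertical axes) of single arrays by replicate number (horizontal axes). The GAPDH ratio averaged -0.01 in replicate 3 and 0.36 in replicates 1 and 2, with overlapping arrays.

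The labels give no tissue, and leaf markers were bright. The summed signal of RCA and 3 LHCB4 genes, for rubisco activase and light-harvesting proteins, ran from 7289 to 9394 in replicate 3, against 5221 to 13477 in the others, and 0 of the 4 were called. Root markers, 2 genes, summed to 113 to 290 in replicate 3, against 43.0 to 243 in the others. The 1 seed marker, OLEO3, was near the floor at 6.46 to 8.88 in replicate 3, against 4.63 to 13.5 in the others. The 5 markers of dividing cells summed to 385 to 679 in replicate 3, against 388 to 666 in the others, and the 1 senescence marker, SAG29, ran from 4.51 to 122 in replicate 3, against 6.16 to 235 in the others. Ranges of these 5 marker groups overlapped between replicate 3 and the others. Flower and pollen markers had also been planned, but no values for them are given here. SAG29 and the root marker NRT2.5 were not among the genes planned as markers. SAG29 belongs to a list of senescence genes, and 0 of its 4 tested members were called, beside 0.762% of all tested probe sets. In that list 2 had an unadjusted p below 0.05, beside 1804 of 13647 (limma). The list's median was 0.40 on the log2 scale, and SAG29, at -0.26, was its 1 negative difference.

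Of 14 tested immunity genes 1, WRKY6, was higher in replicate 3 and 13 did not pass, while 9 had an unadjusted p below 0.05, all 14 differences were positive and the median was 0.41 on the log2 scale. Among all 13647 tested probe sets 0.41% were called higher, and 1804 had an unadjusted p below 0.05. BIK1, a kinase of immune receptors, had signals of 111, 146 and 407 in replicate 3, against 62.2, 77.3 and 295 in replicate 1 and 63.3, 82.2 and 198 in replicate 2. Its difference of 0.73 did not pass (SE 0.18, adjusted p = 0.0885, limma). UGT76B1, which conjugates salicylic acid and related compounds, had a difference of 0.89 (adjusted p = 0.197), and WRKY47, a transcription factor, one of 0.48 (adjusted p = 0.152).

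Of 7 tested SWEET transporters 1 was lower in replicate 3, 5 had an unadjusted p below 0.05, and the median was -0.36 on the log2 scale, beside 0.352% lower and 1804 of 13647 among all tested probe sets. Beside SWEET13, SWEET4 had a difference of -0.80 (adjusted p = 0.160, limma), SWEET17, a fructose transporter of the vacuole, one of -0.43 (adjusted p = 0.228) and SWEET1 one of -0.36 (adjusted p = 0.160). SWEET4 had signals of 32.0, 60.5 and 93.0 in replicate 3, against 76.9, 136 and 212 in replicate 1 and 47.3, 88.7 and 139 in replicate 2, with overlap.

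Cold, drought and ABA genes had 11 tested members, of which DI21 was lower and 0 were higher, 10 had a negative difference and the median was -0.24 on the log2 scale, beside 0.352% lower and 7216 of 13647 negative among all tested probe sets. The list's median was -0.36 against replicate 1 and -0.11 against replicate 2, and -0.28 between replicates 2 and 1. LTI30, a dehydrin of cold and drought, had a difference of -0.54 that did not pass (adjusted p = 0.191, limma). Of 33 tested redox and detoxification genes 1, AT5G64120, was higher, beside 0.41% called higher among all tested probe sets. An unadjusted p below 0.05 was found for 7 of the 33, beside 1804 of 13647, and the list's median was 0.06. PRX52, a peroxidase of lignin formation, had a difference of 0.85 (adjusted p = 0.0718). JRG21, a jasmonate-regulated oxygenase, had signals of 33.5, 70.6 and 121 in replicate 3, against 8.46, 12.2 and 28.2 in replicate 1 and 22.7, 27 and 64.5 in replicate 2, and its difference of 1.06 did not pass (adjusted p = 0.0933).

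Few other genes of the named lists came near the threshold. WSD1, an enzyme of wax ester synthesis, had a difference of -0.77 (adjusted p = 0.0820, limma), and GID1B, a gibberellin receptor, one of 0.85 (adjusted p = 0.103). GH3.3, which conjugates auxin, had a difference of 1.16 (adjusted p = 0.121), and CHIL, which aids flavonoid synthesis, one of -0.53 (adjusted p = 0.114). In endoplasmic reticulum folding, the calreticulin CRT1b and the stress factor BZIP60 had differences of 0.49 and 0.42 (adjusted p = 0.199 and 0.206). Of 8 tested genes of this list 0 were called, beside 0.762% of all tested probe sets. An unadjusted p below 0.05 was found for 3 of the 8, beside 1804 of 13647. Their median was 0.19 on the log2 scale, with 2 negative differences. Of 43 tested cell wall genes 0 were called, 3 had an unadjusted p below 0.05 and the median was -0.01 on the log2 scale, as over all tested probe sets. Of 8 reference genes, among them tubulins and PEX4, 0 were called, 0 had an unadjusted p below 0.05 and the median was 0.09.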

How the data were processed

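The authors deposited linear MAS5 intensity values, per the submitters' processing notes, which name no version; the genome build is not given in the sources used here. Arrays had been scaled by them: leaving out the lowest and highest 2% of intensities, the mean was 100.01 on each of the 18. Median signal ran from 27.5 to 37.3, and the number of arrays limits the precision. The array holds 22810 probe sets, and 64 of these are controls. A single gene was named for 13513, several for 503 and none for 8730. Names came from the platform's table and RefSeq (13436 of the 13513 matched), used without coordinates.

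Tests ran on log2(signal + 16), which understates differences of dim genes, over the brightest 60% of probe sets by mean (13647). The model (R 4.3.3 with limma 3.58.1; lmFit and eBayes with trend; two-sided; Benjamini-Hochberg threshold 0.05) had replicate number as 3 levels, the 6 cells of treatment by serial set as fixed blocks, and the 9 pairs of SA and silwet arrays of a set and replicate number as a random block (correlation 0.393). Same-numbered SA and silwet arrays deviated together from their cell means (correlations 0.129 to 0.770, which hold the replicate effect that a pair shares, and -0.283 to 0.702 after its removal). No title states a pairing of SA and silwet arrays. The pairs were inferred from the order of the serial numbers and the replicate number. The difference between sets was fitted without pairs. Array values had an exact permutation test over 27 arrangements. The fits were tested on simulated data.

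The groups, blocks, gene lists and naming rule were chosen with earlier results of these data known; families defined by symbol were added, and list members that the tables annotate otherwise removed, after values were seen. The rule named the 10 largest increases and decreases among called probe sets with 1 gene and 1 sign in all cells, the same among genes with a symbol, up to 4 genes per list by adjusted p, and up to 5 genes with a symbol each way between replicates 2 and 1. Plastid genes outside it, AT1G26420, AT2G17740, AT2G27660, AT1G16850, AT1G48750, AT4G33040, AT3G47590, AT4G23820 and the unnamed probe sets were named after their values were seen. Alternatives changed blocks, pseudocount, filter, normalization, array weights and arrays. Promoter motifs were not analysed here.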

Additional observations from a re-analysis of the deposited data

Results flagged for a closer look

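Within the 6 arrays of a replicate number, an array was picked out when its distance to the nearest other array was large against the range of the group (Dixon's criterion). Of 96 groups tested 8 were picked out, and chance gives about 1 in 20. In replicate 3, the SA array of set 1 had a ubiquitin 3′ to 5′ log2 ratio of 0.70, the nearest array of replicate 3 having 1.22. The SA arrays of set 1 in replicates 1 and 2 had ratios of 1.10 and 0.737. The silwet array of set 3 in replicate 3 had an atpH level of 8.97 in log2(signal + 16), the nearest having 9.85, so that 1 array of 6 was lower in the gene that was higher in replicate 3.

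A further 4 of the 8 fell on replicate 1. The SA array of set 1 there had a score of 65.5 on the first principal component, the nearest having -1.87, a level of 7.88 for AT1G26380 (nearest 6.0) and one of 7.76 for WRKY6 (nearest 6.28). The other SA arrays of set 1 were high too: their scores were 67.7 in replicate 3 and 52.8 in replicate 2, the AT1G26380 signals 428 and 200.5 beside 220 in replicate 1, and the WRKY6 signals 270 and 154 beside 200.4. High values were thus not limited to 1 array. For AT1G26380 they were not limited to SA arrays either, since the silwet array of set 1 in replicate 3 had a signal of 306. The silwet array of set 1 in replicate 1 had a level of 4.48 for AT1G68620 (nearest 5.83). In replicate 2, the SA array of set 3 had a score of -46.2 on the second component (nearest -5.35), and the silwet array of set 1 a SWEET13 level of 7.35 (nearest 6.5). The cause was not tested for any of these.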

How the results depend on the processing

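All 104 called probe sets kept their direction in the 34 alternatives, as far as they were tested there, but how many passed depended on the fit, and of the 104 only psbA and accD passed in each of them. Counts below are of probe sets higher and lower in replicate 3 against replicates 1 and 2 (56 and 48), then of those that differed between replicates 3 and 2 (17), 2 and 1 (3) and among all 3 (95); for replicates 3 and 1 the share of tested probe sets is given (1.17%). Without the block for pairs, which treats paired arrays as independent, the counts were 395, 293, 183, 125 and 851, and the share 7.63%. With array weights they were 926, 968, 1504, 39 and 1905, and 8.35%. Without serial set 1 they were 36, 16, 3, 0 and 29 (0.469%), without set 2 they were 1, 2, 3, 0 and 3 (0.044%), and without set 3 they were 436, 239, 103, 176 and 1292 (13.2%). Of the 104, 37 were called without set 1 and 3 without set 2. SA arrays alone gave 6 higher and 4 lower, of which 9 were among the 104, and silwet arrays alone kept 51 of the 104. With replicate 3 against the rest as 2 levels, 35 were higher and 22 lower.

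Quantile normalization gave 88 higher, a share of 2.15% between replicates 3 and 1, 36 between 3 and 2, and 150 among all 3. Testing every Arabidopsis probe set gave 86 higher, 26 between 3 and 2, and 5 between 2 and 1. With pairs averaged the share between 3 and 1 was 0.755%, with 8 between 3 and 2, 0 between 2 and 1 and 33 among all 3. Replicates 2 and 1 differed in 5 with additive blocks and in 1 after scaling to the 75th percentile, and replicates 3 and 2 in 11 without probe sets that may cross-hybridise. The proportion of higher ones among the called was 53.8%, and 71.2% with pairs averaged, 42.3% with additive blocks, 56.8% after quantile normalization and 54.4% after 75th percentile scaling.

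With 1 array left out, the higher count ran from 29 to 230, the lower from 24 to 130, and the share between replicates 3 and 1 from 0.498% to 3.6%. Replicates 3 and 2 differed in 5 to 64, 2 and 1 in 0 to 17, and all 3 in 44 to 222. The difference between sets called 0 or 1 probe set, and that between treatments 0, with each array left out. With single arrays permuted within combinations of treatment and set, the GAPDH ratio had an exact p of 0.0425 (0.128 adjusted over 9 measures), the first component one of 0.0192 and the third one of 0.0151 (0.0864 adjusted for both). The causes were not tested. Differences between treatments and between sets were not refitted with averaged pairs, additive blocks, 2 levels, array weights or 1 treatment alone.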
